A study of Rattus norvegicus with 6 samples.

Results

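Genes for secreted or membrane-tethered attractants of leukocytes, the CC chemokine genes Ccl2, Ccl3, Ccl4, Ccl5, Ccl7, Ccl11, Ccl12, Ccl19 and Ccl20 and the fractalkine gene Cx3cl1, were followed in rat cardiac fibroblast cultures. These 10 rows were taken by symbol from a deposited table of 30560 genes. They were chosen by their FPKM in the same 6 libraries that are compared here, so their difference between groups is given as a description, without a test. FPKM are fragments scaled by gene length and library size, so levels of different genes can be set side by side.

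The antagomiR cultures received 50 nM of an antagomiR against miR-142-3p, a chemically modified antisense oligonucleotide that blocks a mature microRNA, and the control cultures 50 nM of a negative control oligonucleotide (NC). Both were delivered with a lipid transfection reagent. Each group had 3 libraries of primary ventricular fibroblasts (NRCFs in the labels) from newborn Sprague-Dawley rats aged 1 to 2 days, enriched through their faster attachment and kept without serum overnight. Mature microRNAs are not measured in polyadenylated RNA, so the effect of the antagomiR on miR-142-3p itself was not checked. The labels give no untransfected cultures and do not say whether replicates were separate isolations, so p-values below measure only the spread between these libraries. Library totals recovered from the FPKM values ran from 22215475 to 24622667 fragments with the antagomiR and from 19472409 to 24248843 in NC. Fibroblast markers were abundant, with summed levels of 11919 to 12171 FPKM with the antagomiR and 12672 to 12909 FPKM in NC for 10 genes. NC replicate 3 stood apart from the other NC libraries, with a summed level of macrophage and monocyte markers of 725 FPKM against 144 and 213 FPKM in NC replicates 1 and 2, so values without it are given where it moves a result.

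The microRNA that the antagomiR is directed against is shown to identify the agent, with its seed, bases 2 to 8, in capitals. The sequence is RefSeq's for GRCr8, on the plus strand of chromosome 10.

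rno-miR-142-3p: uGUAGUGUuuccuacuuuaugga

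Chemokines are small secreted proteins that bind G protein-coupled receptors and draw leukocytes along a gradient. In CC chemokines the first pair of conserved cysteines is adjacent, whereas in fractalkine, the CX3C ligand, other residues lie between them. Fractalkine is made as a membrane-anchored protein on a mucin-like stalk, from which metalloproteases release a soluble form. In the heart, ligands of Ccr2 are known for recruiting monocytes after injury, and fibroblasts as well as macrophages can make them.

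All 10 genes were higher in each antagomiR library than in every NC library. For comparison, the antagomiR range lay wholly above the NC range for 29.2% of the 12024 genes that averaged 1 FPKM or more across libraries, which are the genes tested. Since the genes were chosen with this contrast in view, nothing is read from their count. By level with the antagomiR the order was Ccl2, Ccl7, Ccl12, Ccl3, Cx3cl1, Ccl4, Ccl5, Ccl20, Ccl19 and Ccl11. Neighbours in this order did not overlap among antagomiR libraries down to Ccl20, whereas Ccl19 and Ccl11 overlapped. In NC the order began with Ccl2, Ccl3, Ccl7 and Cx3cl1, and the ranges of Ccl3, Ccl7 and Cx3cl1 did overlap their neighbours. The median difference of the 10 genes was 2.98 on the log2(FPKM + 1) scale, against 0.06 over all tested genes. Because 1 is added before the logarithm, differences on this scale are smaller than the fold for genes near 0.

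**Figure D1:**
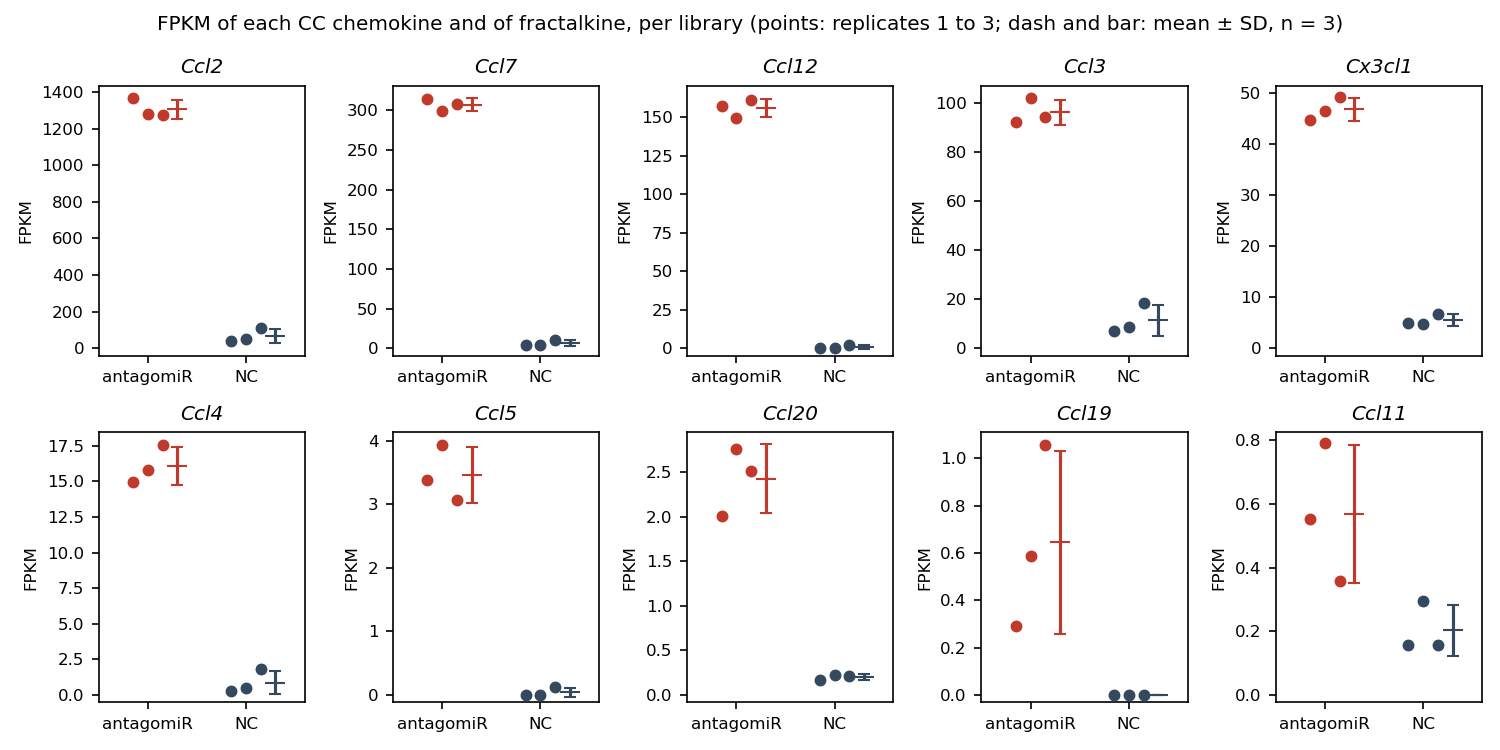
FPKM of each chemokine gene (vertical axes, starting near 0 and scaled per gene) in the 3 antagomiR and the 3 NC libraries, with points for replicates 1 to 3 from left to right and a dash with a bar for the mean and SD. In every panel the lowest antagomiR point lies above the highest NC point, from Ccl2 at 1271 against 114 FPKM down to Ccl11 at 0.359 against 0.296 FPKM.

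The ligands of Ccr2 held the highest levels. Ccl2, the main monocyte attractant, had 1365, 1277 and 1271 FPKM in antagomiR replicates 1 to 3, against 41.5, 52.0 and 114 FPKM in NC replicates 1 to 3. All antagomiR libraries lay far above NC, and within NC the value of replicate 3 stood above the other two. The mean was 1305 ± 52.6 FPKM with the antagomiR and 69.1 ± 39.0 FPKM in NC (SD, n = 3 each), an 18.9-fold difference. By mean level Ccl2 held rank 35 among all genes of the table with the antagomiR and rank 957 in NC.

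Ccl7, a ligand of Ccr1, Ccr2 and Ccr3, had 315, 299 and 308 FPKM with the antagomiR, against 4.35, 4.51 and 10.9 FPKM in NC. The groups were far apart and NC replicate 3 was again the highest of its group. The fold of the means was 46.6, and Ccl7 held rank 197 with the antagomiR and rank 7240 in NC. Ccl12, a Ccr2 ligand described in mice, had 157, 149 and 161 FPKM with the antagomiR, against 0.19, 0.535 and 2.54 FPKM in NC. That was the widest gap of the 10 genes, with a fold of the means of 143. The NC values of Ccl12 rest on 2, 7 and 27 fragments in replicates 1 to 3, so the size of this fold is imprecise.

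These 3 genes did not keep their proportions. The level of Ccl7 was 0.230, 0.234 and 0.243 times that of Ccl2 in the antagomiR libraries and 0.105, 0.0867 and 0.096 times in NC replicates 1 to 3. For Ccl12 the level relative to Ccl2 was 0.115 to 0.127 with the antagomiR and 0.00459 to 0.0223 in NC. Together Ccl2, Ccl7 and Ccl12 made up 90.9% to 92.1% of the summed FPKM of the 10 genes with the antagomiR and 78.5% to 82.1% in NC. Ccl2 alone made up 66.6% to 68.4% with the antagomiR and 70.7% to 73.5% in NC, so the larger joint share came from Ccl7 and Ccl12.

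The next group are attractants of monocytes, macrophages and T cells. Ccl3, a macrophage inflammatory protein that binds Ccr1, had 92.3, 102 and 94.4 FPKM with the antagomiR, against 6.95, 8.81 and 18.5 FPKM in NC. Its fold of the means, 8.43, was the second smallest of the 9 genes that had fragments in NC. Ccl4, a macrophage inflammatory protein close to Ccl3, had 14.9, 15.8 and 17.6 FPKM with the antagomiR, against 0.298, 0.509 and 1.81 FPKM in NC. Ccl4 was at 0.155 to 0.186 times the level of Ccl3 with the antagomiR and 0.0429 to 0.0975 times in NC.

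The listed spans of Ccl3 and Ccl4 overlap by 887 bp. Without a stated strand setting, fragments from the shared stretch cannot be assigned, so the split between these genes is uncertain. Ccl2 (1803 bp) lies wholly within an unnamed gene, ENSRNOG00000068272, which is listed at 0 in all 6 libraries. Near-identical copies among chemokine genes could likewise divide or lose fragments.

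Ccl5, which binds Ccr1 and Ccr3 and is known from T cells and interferon responses, had 3.38, 3.93 and 3.07 FPKM with the antagomiR. In NC it was listed at 0 in replicates 1 and 2 and at 0.127 FPKM, from 3 fragments, in replicate 3. Over the pooled fragments, 290 with the antagomiR and 3 in NC, the ratio was 88.0, with an exact 95% interval of 29.8 to 429 that covers counting error only.

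Ligands of lymphoid and mucosal traffic were low in both groups. Ccl20, the ligand of Ccr6, had 2.01, 2.76 and 2.51 FPKM with the antagomiR, against 0.164, 0.219 and 0.216 FPKM in NC, a 12.2-fold difference of the means. Its NC values rest on 3, 5 and 4 fragments. Their coefficient of variation of 15.6%, against 56.5% for Ccl2, therefore says little about the spread. Ccl19, the ligand of Ccr7, had 0.29, 0.589 and 1.06 FPKM with the antagomiR, from 4, 9 and 15 fragments, and none in NC. Set against an assumed floor of 3 fragments over the 3 NC libraries, its 28 fragments with the antagomiR gave a ratio of 8.49. That ratio allows for counting error in NC only and not for the spread between libraries. Ccl11, the eosinophil attractant eotaxin and ligand of Ccr3, had 0.554, 0.791 and 0.359 FPKM with the antagomiR, against 0.158, 0.296 and 0.156 FPKM in NC. Its groups nearly touched, and 39 fragments with the antagomiR against 13 in NC carry the difference. Ccl11 and Ccl19 had means under 1 FPKM over the 6 libraries. The other 8 passed that filter, with NC means under 1 FPKM for Ccl4, Ccl5 and Ccl20.

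Cx3cl1, the membrane-anchored ligand of Cx3cr1, had 44.8, 46.5 and 49.2 FPKM with the antagomiR, against 5.03, 4.77 and 6.81 FPKM in NC. The groups were well separated and each was tight, with means of 46.8 ± 2.22 FPKM with the antagomiR and 5.54 ± 1.11 FPKM in NC (SD, n = 3 each). Its fold of the means was 8.45, close to the 8.43 of Ccl3, but from a narrower NC group. The coefficient of variation in NC was 20.1% for Cx3cl1 and 54.4% for Ccl3.

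Among antagomiR libraries the 6 most abundant genes varied little, with coefficients of variation of 2.53% for Ccl7 to 8.33% for Ccl4. In NC the spread of most of these genes followed replicate 3. That library stood at 7 times the mean of NC replicates 1 and 2 for Ccl12, 4.47 times for Ccl4, 2.46 times for Ccl7, 2.43 times for Ccl2 and 2.35 times for Ccl3. For Cx3cl1 the ratio was 1.39. For Ccl20 it was 1.13 and for Ccl11 0.688, both from at most 7 fragments per NC library. Without NC replicate 3 the fold of the means became 430 for Ccl12 and 39.9 for Ccl4, from 143 and 18.5 with it. The corresponding folds were 69.4 for Ccl7, 27.9 for Ccl2, 12.7 for Ccl20, 12.2 for Ccl3, 9.55 for Cx3cl1 and 2.5 for Ccl11.

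Some markers of macrophages and monocytes moved with these genes. The summed level of 15 such markers was 946 to 1058 FPKM with the antagomiR and 144, 213 and 725 FPKM in NC replicates 1, 2 and 3. Lyz2 alone averaged 523 FPKM with the antagomiR and 186 FPKM in NC and so made up much of these sums. All 14 tested markers were higher in NC replicate 3 than in the other NC libraries. In that library the marker sum reached 72.4% of the antagomiR mean, while the summed FPKM of the 10 chemokine genes reached 8% of it. In NC replicates 1 and 2 the marker sum was 14.4% and 21.3% of the antagomiR mean and the chemokine sum 3.03% and 3.71%. For the 8 chemokine genes averaging 1 FPKM or more, NC replicate 3 lay at 1.63% of the antagomiR mean for Ccl12 to 19.2% for Ccl3. The markers ran from 19.3% for Adgre1 to 200% for Mrc1, with a median of 83.4%. The part of leukocyte content in the chemokine differences was not tested. In bulk RNA, more cells of a type and more RNA per cell cannot be told apart.

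**Figure D2:**
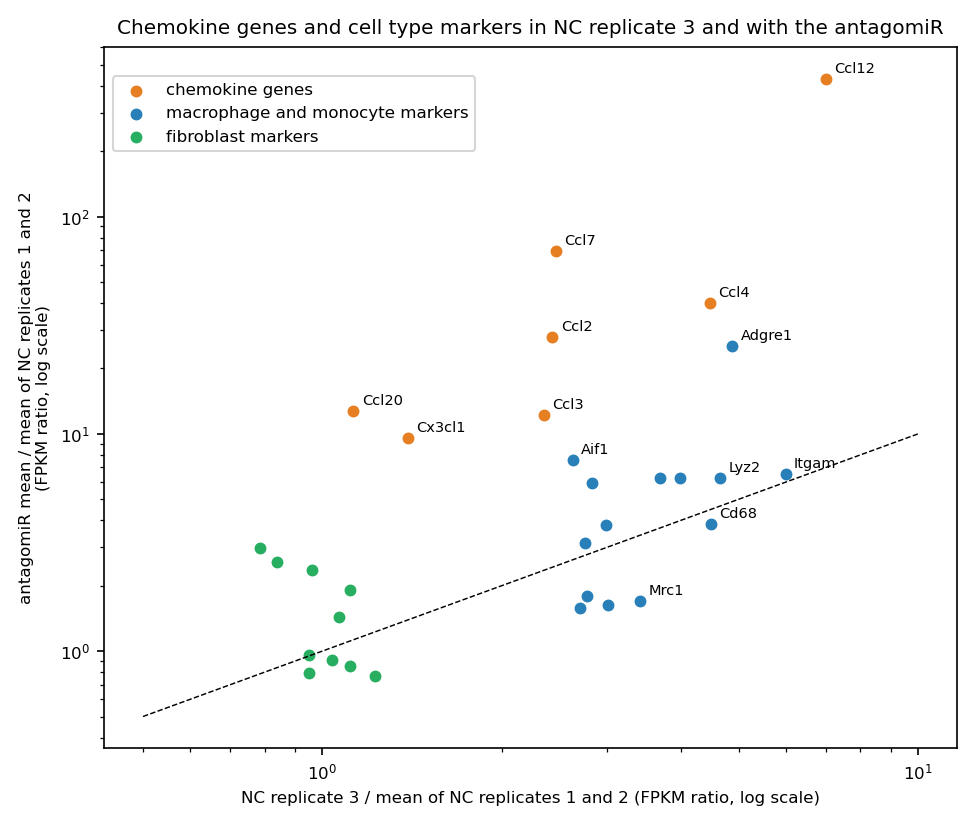
For each tested gene, the FPKM in NC replicate 3 (horizontal axis) and the antagomiR mean (vertical axis), both divided by the mean of NC replicates 1 and 2, on log scales, with a dashed line where they are equal. Macrophage markers lie on both sides of the line, with Adgre1 farthest above it at 4.88 and 25.3, fibroblast markers near 1 on the horizontal axis, and chemokine genes above the line, up to Ccl12 at 7 and 430. Ccl5, at 0 in NC replicates 1 and 2, has no such ratio.

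Of the 14 tested macrophage and monocyte markers 6 rose and 0 fell by limma at an adjusted p under 0.05, against 17.5% higher and 9.21% lower over all tested genes. They included the macrophage receptor gene Adgre1, with a log2 fold change of 3.59 ± 0.54 SE (limma adjusted p = 0.00324), and Cd14, a co-receptor for endotoxin, at 1.93 ± 0.35 SE (adjusted p = 0.00697). Lyz2, the most abundant, was not called (adjusted p = 0.0511). It was called without NC replicate 3, at 2.67 (adjusted p = 4.86e-05), and with all 6 libraries after quantile normalization (0.0397) and by voom (0.0306). Its levels were 566, 484 and 520 FPKM with the antagomiR, against 62.7, 105 and 390 FPKM in NC. Fcer1g, Tyrobp and Ptprc lost their calls when any 1 antagomiR library or NC replicate 2 was left out, with adjusted p of 0.0646 to 0.122, and Tyrobp and Ptprc also without NC replicate 1 (0.0616 and 0.0917) and without a filter on low values (0.0617 and 0.0796). Ptprc was not called after quantile normalization (0.0522). The complement genes C1qa, C1qb and C1qc and the mannose receptor gene Mrc1 were not called, with folds of the means of 1.01, 0.976, 1.12 and 0.944 over all libraries. Without NC replicate 3 these folds were 1.59, 1.63, 1.78 and 1.70. Csf1r, Cd68 and Itgam were not called either, with folds of 1.97, 1.78 and 2.45. Their folds without NC replicate 3 were 3.13, 3.84 and 6.52. Markers of other leukocytes were near 0. The summed level of 9 lymphocyte markers was at most 0.304 FPKM with the antagomiR and 0.332 FPKM in NC, with Cd3e and Ms4a1 listed at 0 in all libraries. For 5 neutrophil markers it was at most 1 FPKM with the antagomiR and 0.783 FPKM in NC, with S100a9, Mpo and Elane at 0.

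Other cell types were also checked. Itgax, a marker of dendritic cells that macrophages also express, rose by 2.04, while the dendritic factor gene Zbtb46 was not called. The endothelial markers Pecam1, Cdh5, Kdr and Vwf were each under 0.3 FPKM in every library and Emcn was at 0, and 1 of 7 endothelial genes, Tek, was tested and called. That call was lost when any library but NC replicate 3 was left out, without a filter on low values, and after median-ratio scaling (adjusted p = 0.0714) or quantile normalization (0.26). The summed level of 3 lymphatic markers was at most 0.579 FPKM with the antagomiR and 0.373 FPKM in NC. Of 6 tested cardiomyocyte markers 2 rose and 1 fell, of 3 mesothelial and epicardial markers 0 rose and 2 fell, and of 3 smooth muscle and pericyte markers 0 rose and 3 fell, with the same shares over all genes as background. The smooth muscle and pericyte genes that fell were Acta2, Cspg4 and Myh11. Below the filter, Kcnj8 averaged 0.309 FPKM with the antagomiR and 0.098 FPKM in NC, Abcc9 0.403 and 0.219, and Rgs5 0.220 and 0.124. The cardiomyocyte gene that fell, Tnnt2, was not called without NC replicate 2 (adjusted p = 0.0512). Of the mesothelial genes Msln lost its call when any library but NC replicate 2 was left out (adjusted p = 0.0556 to 0.141) and without a filter on low values (0.0737), which leaves 1 fallen. Wt1 was called up by voom (0.0465) and without NC replicate 3 (0.0282). Of the 10 fibroblast markers 5 rose and 3 fell, led by the growth factor receptor gene Pdgfra at 1.59.

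Of the 10 chemokine genes 7 lie on chromosome 10 of mRatBN7.2 in 2 clusters. Ccl2 (ENSRNOG00000007159, chr10:67005424-67007226), Ccl7 (chr10:67016446-67018303), Ccl11 (chr10:67028328-67032926) and Ccl12 (chr10:67070230-67071780) occupy 66.4 kb. Within this stretch the differences on the log2(FPKM + 1) scale were 4.36 for Ccl2, 5.45 for Ccl7, 0.37 for Ccl11 and 6.39 for Ccl12, so Ccl11, which lies between Ccl7 and Ccl12, differed least. Ccl5, Ccl3 and Ccl4 follow 1251 kb further on, within 145.4 kb, with differences of 2.09, 3.08 and 3.27.

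Genes beside these clusters were read from the fit over all tested genes, with the shares of 17.5% higher and 9.21% lower with the antagomiR as background. Of 55 other genes within 500 kb, 21 were tested, and 9 of these rose and 3 fell. Their median log2 fold change was 0.25. Over all genes the split was 2109 higher and 1107 lower, against 1571 and 1483 after median-ratio scaling and 1413 and 1869 after quantile normalization. With these scalings 7 and 6 of the neighbours rose and 3 and 4 fell.

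The risen neighbours included Slfn2, Slfn5 and Slfn13, members of the interferon-inducible Schlafen family, and Wfdc21, a whey acidic protein family gene. The Schlafen genes lie together, 363 to 430 kb from the nearest chemokine gene described, and the unnamed ENSRNOG00000062350 beside Slfn5 also rose. Another risen neighbour was Ccl9, itself a CC chemokine gene, which is counted again among the further ligands below. Slfn2 had 14.4, 13.3 and 14.5 FPKM with the antagomiR, against 1.19, 1.08 and 4.05 FPKM in NC, a log2 fold change of 2.40 ± 0.32 SE (limma adjusted p = 0.00201). Wfdc21 had 2.96, 3.53 and 3.11 FPKM with the antagomiR and 0.135, 0 and 0 FPKM in NC (adjusted p = 5.16e-05). Its NC values rest on 1, 0 and 0 fragments, and it passed the filter only through the antagomiR libraries. The small p-value therefore rests on an NC spread near 0. Mmp28, a metalloproteinase gene 58.0 kb from a chemokine gene, went the other way, at 9.28 ± 0.342 FPKM with the antagomiR and 19.3 ± 1.49 FPKM in NC (adjusted p = 0.000166). The vesicle adaptor gene Ap2b1 had a log2 fold change of 0.15 and was not called (adjusted p = 0.0732). It was called without NC replicate 3, at 0.19 (adjusted p = 0.0153).

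**Figure D3:**
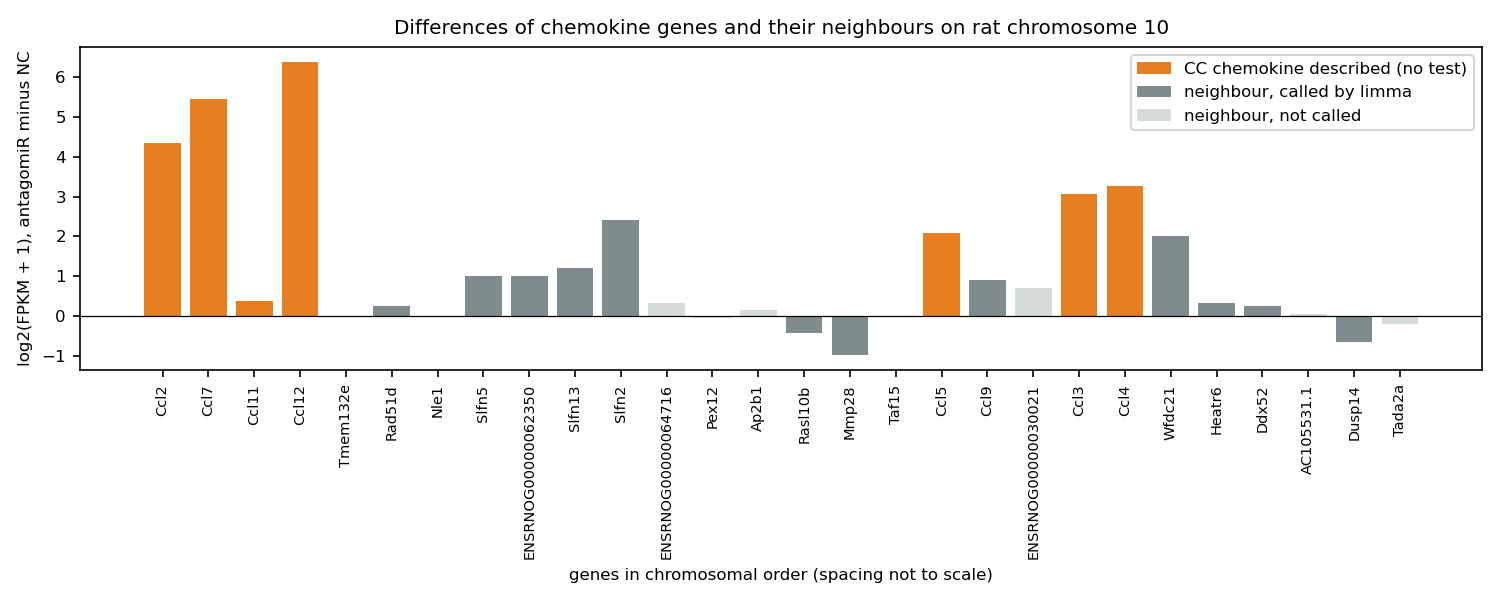
Difference of mean log2(FPKM + 1), antagomiR minus NC, for the 7 chemokine genes and the 21 tested neighbours in their order along chromosome 10, with bars for single genes and spacing not to scale. Ccl12 at 6.39 and Ccl7 at 5.45 stand highest, Slfn2 at 2.40 and Wfdc21 at 2.01 are the highest neighbours, and Mmp28 at -0.98 is the lowest.

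The remaining genes also have ligand genes beside them. Cx3cl1 (ENSRNOG00000016326, chr19:10227340-10236833) lies between Ccl17, 23.5 kb away, and Ccl22, 20.8 kb away, whose products bind Ccr4. Ccl22 had 1.35, 1.6 and 1.48 FPKM with the antagomiR, against 0.319, 0.302 and 1.55 FPKM in NC, and was not called (adjusted p = 0.133). NC replicate 3 reached the antagomiR level for Ccl22, and without that library it was called up at 0.92 (adjusted p = 0.000495), as it was by limma voom on recovered fragments (adjusted p = 0.0491). Ccl17, named after its values were seen, had a log2 fold change of 0.49 (adjusted p = 0.0541). Ccl19 (chr5:56963364-56965308) lies between Ccl27 and Ccl21, at distances of 14.9 and 15.2 kb. Ccl21, like Ccl19 a ligand of Ccr7, was listed at 0 in all libraries, and Ccl27 overlapped between groups. Ccl20 is at chr9:84388904-84391629.

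Of 11 further CC and XC ligand genes listed, 3 averaged 1 FPKM or more, and 1 of them rose and 0 fell. The shares over all tested genes were 17.5% higher and 9.21% lower, with which so few genes cannot be compared. The risen gene was Ccl9, a Ccr1 ligand described in mice that lies between Ccl5 and Ccl3. It had 1.54, 2.08 and 1.56 FPKM with the antagomiR, against 0.159, 0.224 and 1.18 FPKM in NC, a log2 fold change of 0.90 ± 0.25 SE (limma adjusted p = 0.0346). The call was lost without antagomiR replicate 1 or 3 (adjusted p = 0.0869 and 0.0891) and without NC replicate 1 or 2 (0.087 and 0.112). It was also lost with a pseudocount of 0.1 (adjusted p = 0.0513) and without a filter on low values (0.0665). Ccl1, Ccl21 and Ccl26 were listed at 0 in every library. Ccl6 was not analysed here.

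**Figure D4:**
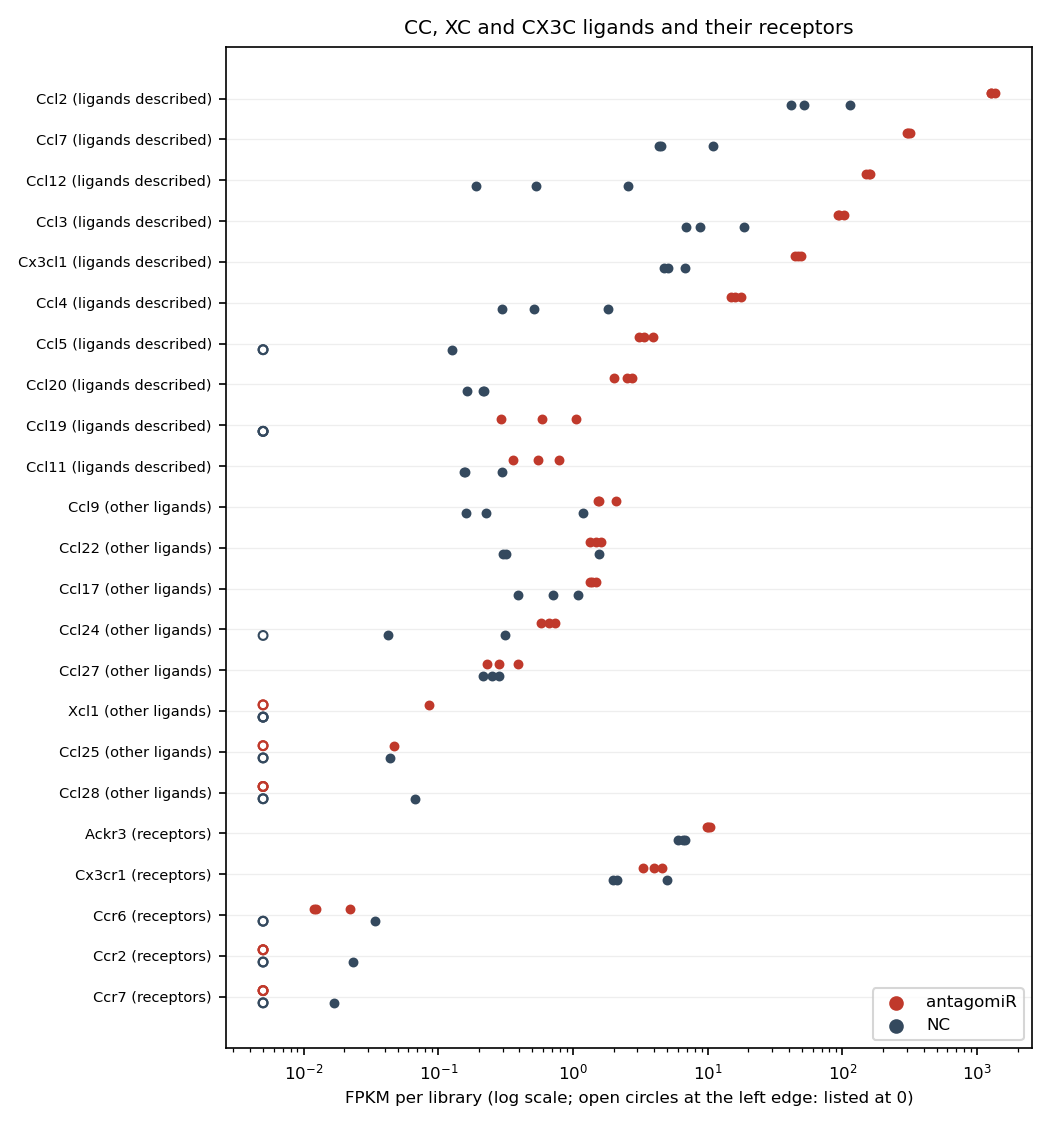
FPKM per library (log scale) of the 10 chemokine genes, the other CC and XC ligand genes with a value above 0 and 5 receptor genes (Ackr3, Cx3cr1, Ccr2, Ccr6 and Ccr7), with antagomiR points above NC points on each line and open circles for libraries listed at 0. The ligands reach 1365 FPKM for Ccl2, whereas the highest receptor gene, Ackr3, reaches 10.4 FPKM.

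Transcripts of the receptors were scarce. Only 2 of the 15 listed receptor genes averaged 1 FPKM or more, and 1 rose and 0 fell. The shares over all tested genes were 17.5% higher and 9.21% lower, with which so few genes cannot be compared. Ccr2, through which Ccl2, Ccl7 and Ccl12 act on monocytes, was listed at 0 in all antagomiR libraries and at 0.0234 FPKM in NC replicate 3 alone. The receptor genes Ccr3, Ccr8 and Xcr1 were at 0 in every library, and Ccr7 and Ccr6 were under 0.04 FPKM. Ccr1 and Ackr4 were not analysed here.

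The risen receptor gene was Ackr3, which encodes an atypical receptor that scavenges the CXC ligand Cxcl12 and none of the ligands described here. It had 9.96, 9.84 and 10.4 FPKM with the antagomiR, against 6.58, 6.78 and 6.02 FPKM in NC, a log2 fold change of 0.57 ± 0.07 SE (limma adjusted p = 0.00108). Cx3cr1, the fractalkine receptor of macrophages and microglia, had 3.33, 3.97 and 4.58 FPKM with the antagomiR, against 1.97, 2.12 and 4.97 FPKM in NC. It was not called (adjusted p = 0.346), but was called up without NC replicate 3, at 0.70 (adjusted p = 0.00302).

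Among proteases known to release or trim these ligands, 2 of 5 tested rose and 0 fell. Over all tested genes 17.5% were called higher and 9.21% lower. Adam17, the sheddase that releases fractalkine from stimulated cells, was at 23.4 ± 1.64 FPKM with the antagomiR and 15.1 ± 0.902 FPKM in NC (SD, n = 3 each). Its log2 fold change was 0.60 ± 0.07 SE (limma adjusted p = 0.00126). Mmp2, a gelatinase known to cleave Ccl7, was at 809 ± 8.16 FPKM with the antagomiR and 597 ± 23.2 FPKM in NC (adjusted p = 0.00219). The membrane protease gene Mmp14 had a log2 fold change of 0.02 and was not called (limma adjusted p = 0.844). Adam10 and Ctss were not called either (adjusted p = 0.252 and 0.38). Ctss had 26.7, 25.6 and 26.8 FPKM with the antagomiR, against 11.4, 12.7 and 38.7 FPKM in NC. Its fold of the means was 1.26, and 2.19 without NC replicate 3.

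Cytokines and receptors known to induce chemokine transcription were mostly higher. Of 17 tested 15 rose and 1 fell, against 17.5% higher and 9.21% lower over all genes, and the median log2 fold change was 0.73. Tnf had 9.43, 10.4 and 9.9 FPKM with the antagomiR, against 0.247, 0.43 and 0.53 FPKM in NC, a log2 fold change of 2.96 ± 0.10 SE (limma adjusted p = 6.94e-06). Its groups were far apart, but its NC values rest on 6, 13 and 13 fragments, with a coefficient of variation of 35.6%. Adding 1 before the logarithm narrows the spread of such low values, on which the p-value rests. Il1b had 34.6, 32.0 and 32.4 FPKM with the antagomiR, against 0.193, 0.258 and 1.46 FPKM in NC (adjusted p = 7.66e-05), with NC replicate 3 again the highest of its group. The NC values rest on 6, 10 and 46 fragments for Il1b and on 1, 0 and 7 for Il1a. Il1a and Il6 rose by 2.62 and 2.10, the bacterial lipoprotein receptor gene Tlr2 by 3.01, the endotoxin receptor gene Tlr4 by 0.71 and the interleukin 1 receptor gene Il1r1 by 1.27. Il1rap, the accessory chain of that receptor, was the gene that fell, by 0.40, and Il17ra was not called (adjusted p = 0.108) except without NC replicate 3 (adjusted p = 0.00473). Ifng and Il17a were at 0 in all libraries and Ifnb1 in all but antagomiR replicate 1.

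Regulators of chemokine transcription and mRNA decay changed in both directions. Of 20 tested 15 rose and 3 fell, against 17.5% and 9.21% over all genes, and the median log2 fold change was 1.12. Nfkbiz, a nuclear cofactor of NF-kB, rose by 2.40 (limma adjusted p = 1.9e-06), Tnfaip3, a feedback inhibitor of NF-kB, by 2.35 (adjusted p = 0.000113) and the transcription factor gene Cebpd by 2.10 (adjusted p = 4.46e-05). Irf1, an interferon regulatory factor, rose by 0.97. The interferon-induced factor gene Irf7 had the largest log2 fold change of this list on the log2(FPKM + 1) scale, 3.18, though not the largest fold of the means, with 87.9, 89.0 and 80.9 FPKM with the antagomiR, against 2.79, 8.65 and 23.3 FPKM in NC (adjusted p = 0.00765). Its NC replicates were uneven, as those of Ccl12 were, with replicate 3 the highest in both. Nfkbia, the inhibitor that retains NF-kB in the cytoplasm, rose by 2.04 and Relb, a subunit of NF-kB, by 1.62.

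Zc3h12a, which encodes the endonuclease Regnase-1 that degrades inflammatory mRNAs, had 41.1, 43.9 and 44.9 FPKM with the antagomiR, against 5.09, 5.56 and 5.45 FPKM in NC (adjusted p = 1.17e-06). Of the family that binds AU-rich elements in cytokine mRNAs, Zfp36l1 rose by 1.27. Zfp36, tristetraprolin, fell to 34.5 ± 0.551 FPKM with the antagomiR, against 48.8 ± 2.22 FPKM in NC (SD, n = 3 each). Zfp36l2 was not called (adjusted p = 0.0538) but was without NC replicate 3 (adjusted p = 0.000266) and by voom (0.0348). The 3 genes that fell were Zfp36, by 0.49, and the AP-1 subunit genes Jun, by 0.55, and Fos, by 0.44. Counts of both lists were 30 risen and 4 fallen of 37, and 32 and 4 without NC replicate 3. Both lists were written with earlier results of these data known.

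Genes with the profile nearest to that of Ccl2 were found by the root mean square difference of centred log2(FPKM + 1) values over the 6 libraries, among 11025 genes with a symbol. They were Il1b at 0.12, the complement genes Cfb at 0.18 and C1s at 0.27, the leukocyte adhesion gene Vcam1 at 0.30 and the complement inhibitor gene Serping1 at 0.34. Cfb averaged 78.1 ± 7.56 FPKM with the antagomiR and 4.21 ± 2.5 FPKM in NC (SD, n = 3 each). Nearest to Cx3cl1 were the guanylate-binding protein gene Gbp5 at 0.09, Tnf at 0.12, the glucocorticoid-regenerating enzyme gene Hsd11b1 at 0.14, Mnda at 0.14 and Zc3h12a at 0.14. With 2 groups that stand so far apart, the measure reflects mainly the size of the difference and the value of NC replicate 3.

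Promoter sequences from RefSeq (GRCr8) were held for 5 of the 10 genes, Ccl7, Ccl12, Ccl19, Ccl20 and Cx3cl1. Windows from 250 bases before to 50 after the start were searched on both strands for the NF-kB consensus, for the AP-1 consensus TGANTCA and for the core of the interferon-stimulated response element, which is GAAA, then 2 free bases, then GAAA. These letters occur in 7.51%, 7.33% and 3.92% of all 33469 promoter windows. The NF-kB consensus was found in Ccl7, from -59 to -50, and in Ccl20, from -89 to -80, counting from the start, on the minus strand of each promoter. Ccl7 also held the AP-1 consensus from -73 to -67, which matches on both strands and does not overlap the NF-kB letters, and Ccl19 the response element core from -51 to -42. Ccl12 and Cx3cl1 held none of the 3 in their windows. The 150 bases before the start are shown for these 5 genes, the only ones with a promoter sequence, with matches in capitals. In the order printed they lie at chr10:67513945-67514094 (plus strand), chr9:91837009-91837158 (plus), chr5:61761165-61761314 (minus), chr10:67567726-67567875 (plus) and chr19:10242821-10242970 (minus).

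Ccl7: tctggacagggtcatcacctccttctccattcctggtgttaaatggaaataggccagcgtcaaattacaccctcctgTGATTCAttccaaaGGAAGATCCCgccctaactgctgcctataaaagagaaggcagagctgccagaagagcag
Ccl20: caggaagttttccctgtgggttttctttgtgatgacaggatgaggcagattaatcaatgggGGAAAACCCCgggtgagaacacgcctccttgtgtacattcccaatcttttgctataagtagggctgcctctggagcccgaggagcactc
Ccl19: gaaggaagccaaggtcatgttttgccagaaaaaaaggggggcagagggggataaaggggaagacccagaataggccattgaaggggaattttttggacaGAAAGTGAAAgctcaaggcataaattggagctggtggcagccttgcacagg
Ccl12: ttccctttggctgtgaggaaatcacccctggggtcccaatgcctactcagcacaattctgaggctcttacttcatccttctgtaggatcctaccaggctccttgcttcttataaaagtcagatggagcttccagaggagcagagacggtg
Cx3cl1: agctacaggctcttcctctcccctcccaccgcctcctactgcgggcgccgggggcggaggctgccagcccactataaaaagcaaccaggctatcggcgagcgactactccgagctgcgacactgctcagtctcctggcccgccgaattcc

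Ccl7 and Ccl12 thus differed by 5.45 and 6.39 between groups on the log2(FPKM + 1) scale, with matches to 2 of the 3 motifs in the Ccl7 window and to none in that of Ccl12. A match of letters is a description of the sequence and shows no binding.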

How the data were processed

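Polyadenylated RNA was sequenced as paired reads of 150 bases, per the labels' protocols. The deposited table gives FPKM per gene and library as computed by the authors. Per the submitters' processing notes, FastQC, cutadapt, HISAT2, HTSeq and edgeR were named, with the build mRatBN7.2, and the strand setting and annotation release are not given in the sources used here. Columns were assigned to groups by name, with 0 left over. Whole fragments were recovered from the FPKM values through lengths that made all 6 values whole within 0.01, and they made up at least 99.66% of each library total. A floor of 3 fragments on a 1 kb gene corresponds to 0.122 to 0.154 FPKM. Limma 3.58.1 in R 4.3.3 (lmFit, eBayes with a trend) was fitted to log2(FPKM + 1) of genes averaging 1 FPKM or more, two-sided, with Benjamini-Hochberg adjustment over 12024 genes and calls at an adjusted p under 0.05. Intervals are exact binomial ones. The script was tested on simulated data. The chi-square per degree of freedom between replicates was at least 3.53, so no library repeated another.

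The chemokine genes and all lists were chosen with earlier results of these data known. Named genes were, for each list, up to 6 called genes with the smallest p and the most abundant gene not called. Others named singly were picked after their values were seen. A planned comparison of protein sequences was not run.

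Alternatives were a pseudocount of 0.1, other filters, median-ratio and quantile scaling, a replicate block, limma voom on recovered fragments and leaving out each library.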

Additional observations from a re-analysis of the deposited data

How the results depend on the processing

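The 10 chemokine genes kept the sign of their difference in every alternative that gave a value. As their groups do not overlap, a smaller pseudocount or leaving out a library could not have reversed it. Of 124 values 110 moved by less than the spread between replicates. These include the values for other filters and the replicate block, which do not enter the differences and could not move them. The median difference of the 10 genes, 2.98, became 3.79 with a pseudocount of 0.1. For the 8 genes in the voom fit it was 4.49, against 3.18 for the same 8 genes on the log2(FPKM + 1) scale, and leaving out 1 library gave 2.82 to 3.24. The smaller pseudocount and voom shrink low NC values less by construction. Of all genes 3216 were called, and 1866 to 4877 when 1 library was left out, namely 2016, 1986 and 1866 without antagomiR replicates 1, 2 and 3 and 4877 without NC replicate 3. The median over all genes was 0.06 on the log2 scale and -0.05 after quantile normalization. The count of called receptors, 1, became 2 with no filter or a filter of 0.1 FPKM, where more receptor genes were tested, and was 1 to 2 without 1 library. Counts of called regulators (34) and neighbours (12) stayed within 1.5 times in all alternatives, with 29 to 36 and 8 to 15 without 1 library. Over 713 pairs of another named gene and a setting, 657 kept the side of the threshold, 42 lost the call, 14 gained it and 0 reversed a call. Where no cause is given, it was not tested.

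No label ties libraries of the same replicate number together. Their deviations from the group means correlated at -0.16, -0.06 and -0.04, so the numbers were not taken as pairs. With the replicate block 2380 genes were called, 33 regulators, 10 neighbours and 1 receptor, and among named genes Tek (adjusted p = 0.101) and Msln (0.0953) lost their calls and Lyz2 (0.0465) gained one. Depth limits Ccl11, Ccl19 and the NC values of Ccl5, Ccl12 and Ccl20 most, which rest on 0 to 27 fragments per NC library.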
